A study of Mus musculus with 6 samples.

Results

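The genes of the Wnt signalling surface, meaning the secreted Wnt ligands, the Frizzled receptors that bind them and the secreted Sfrp and Dkk antagonists, were followed in C3H10T1/2 cells given dexamethasone. They were taken by gene symbol, through the platform annotation of the array, as every gene called Wnt, Fzd, Sfrp1 to Sfrp5 or Dkk1 to Dkk4. This gave 37 of the 19640 named genes on the array: 19 Wnt, 10 Fzd, 4 Sfrp and 4 Dkk genes, on 48 probes. C3H10T1/2 cells are an established mouse line of mesenchymal precursors with the capacity to form fat, bone, cartilage and muscle, and dexamethasone is a man-made steroid that acts through the glucocorticoid receptor. The study had 3 cultures given DMSO (the vehicle) and 3 given 1 µM dexamethasone for 90 minutes, which the series description calls biological replicates. All were grown in the same serum-containing medium and hybridised on 6 two-colour arrays, the sample in Cy3 and a common RNA pool in Cy5. The sample labels say that DMSO, dexamethasone and myostatin cultures all contributed to that pool, whereas the series description does not name myostatin.

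Wnt proteins are lipid-modified signals that act over short distances. A Wnt binds the cysteine-rich domain of a Frizzled receptor together with the co-receptor Lrp5 or Lrp6, which spares beta-catenin from destruction and lets it act with TCF/LEF factors on target genes, while other Wnts act through beta-catenin-independent routes such as planar cell polarity. Sfrp proteins carry a domain like that of the receptors and bind Wnts outside the cell, and most Dkk proteins bind the Lrp co-receptors instead. In mesenchymal precursors, beta-catenin signalling is known to favour bone over fat formation, and dexamethasone is a usual component of mixtures that turn such cells into fat.

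Each deposited value was read as the log2 ratio of the sample to the pool, so a value is a ratio and not an expression level, and no gene's value can be set against another's as a level. Sample over pool is the likely direction and not a settled one. It was chosen because Dusp1 and Fkbp5, known to be induced by the glucocorticoid receptor, stood higher with dexamethasone in that reading (differences of 4.26 and 3.93 on the log2 scale). Were the ratio the other way round, "higher" would read "lower" throughout and the reverse. The lowest Spearman correlation between arrays was -0.33 over 33698 probes (vehicle 2 against dexamethasone 3). Arrays of the same treatment did not all go together. Dexamethasone 1 correlated at 0.52 and 0.40 with vehicle 1 and 2, and at -0.22 and -0.27 with dexamethasone 2 and 3. Vehicle 3 correlated at 0.07 with both vehicle 1 and vehicle 2, and at 0.40 and 0.34 with dexamethasone 2 and 3. The arrays fell into 2 sets by how many values equalled a ratio of whole numbers from 1 to 10, a mark of dim spots: 1.86% to 3.79% of the values on vehicle 1, vehicle 2 and dexamethasone 1, and 7.73% to 12.7% on vehicle 3, dexamethasone 2 and dexamethasone 3. A value is called low-signal below when it was missing, was such a whole-number ratio or exceeded 10 in size, although a ratio can also match by coincidence. Of 15 mesenchymal markers on the array 14 had a probe free of low-signal values, against 4 of 14 markers of blood, endothelial, epithelial and neural cells. Across all 27046 genes and unnamed probes tested, the treated arrays lay above the vehicle arrays by a median of 0.32. Centring the arrays on their medians brought this to 0.02.

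No Wnt, Fzd, Sfrp or Dkk gene passed the test at 90 minutes. The limma adjusted p (Benjamini-Hochberg over all features) of the 37 ran from 0.732 to 0.997, so 0 were called, as were 0% of all features. The values of 3 Frizzled receptors, Fzd5, Fzd7 and Fzd8, and of the antagonist Dkk2 were lower on all 3 dexamethasone arrays than on any vehicle array. In these bulk RNA samples fewer cells expressing a gene and less RNA per cell cannot be told apart. Averaged over the probes of a gene, the ligands Wnt3a, Wnt8a, Wnt9a and Wnt10b were higher in the same way. Wnt8a had the smallest unadjusted limma p of the 37 (0.0176, 3 arrays against 3). At an unadjusted p under 0.05 there were 4 genes, 2 lower (Fzd8 and Dkk2) and 2 higher (Wnt8a and Wnt9a), which is 4 of 37 where 5.43% of all features reached that level (0.995% lower and 4.43% higher). The dexamethasone and vehicle values did not overlap for 8 of the 36 genes with values on all 6 arrays, 4 lower and 4 higher; over all features 7.29% were lower and 9.95% higher in this way. The median difference of the 37 genes was 0.32, equal to that of all features at 2 decimals, with 27 above 0 and 10 below, where 68.2% of all features were above 0. For 3 arrays against 3 the smallest p of an exact two-sided permutation test is 0.1, and the median SE of a difference was 0.54 among these genes.

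**Figure D1:**
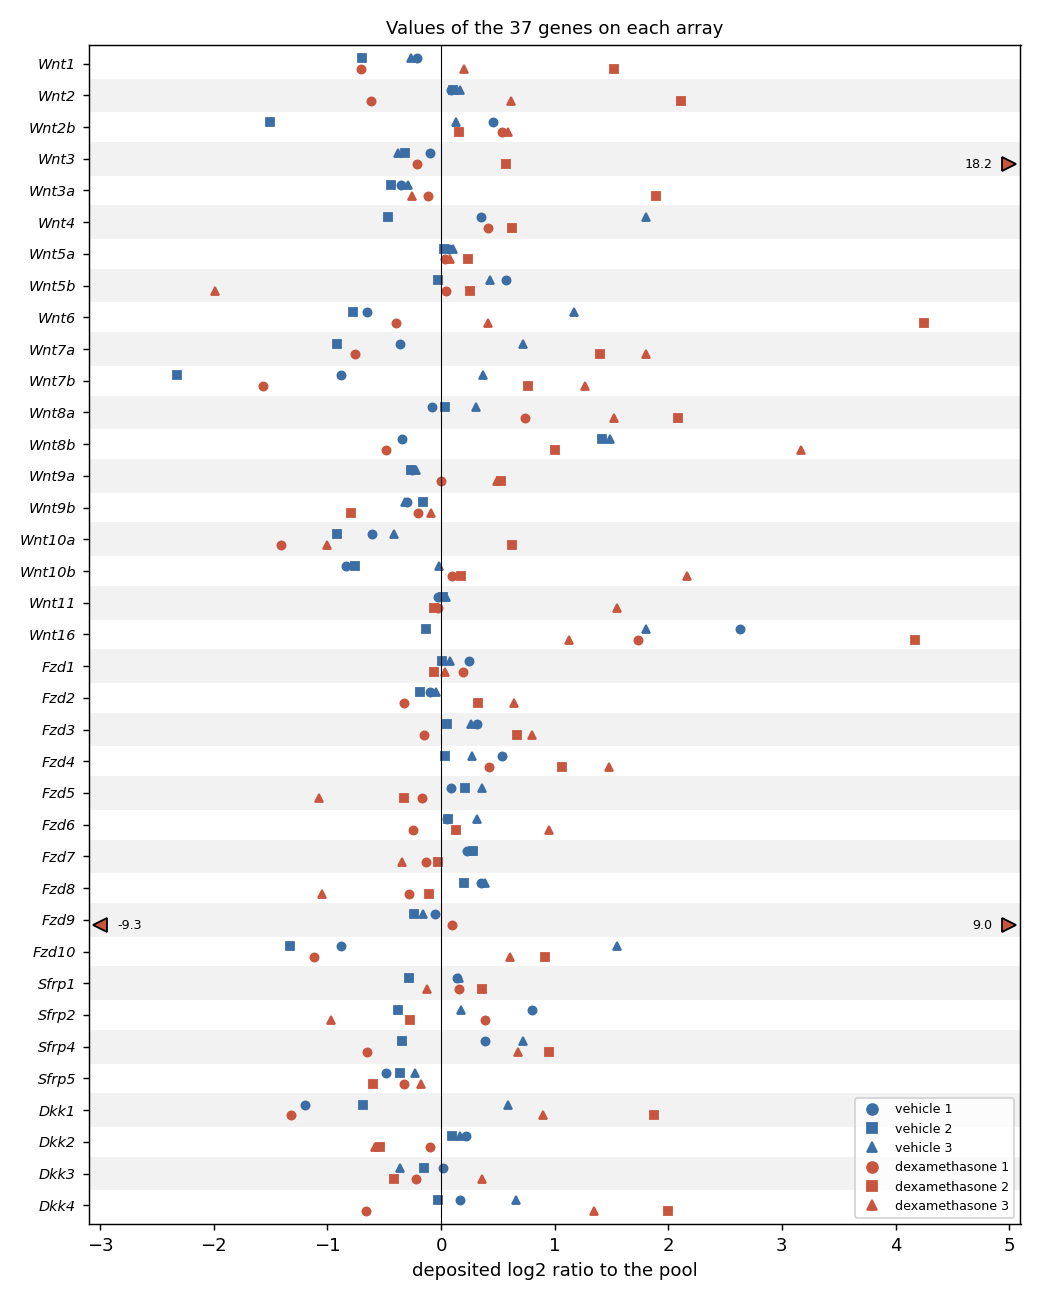
Values of each of the 37 genes (rows) on each array, as deposited log2 ratios to the pool averaged over the probes of a gene; vehicle arrays are blue and dexamethasone arrays red, with a marker shape per replicate number, and triangles at the edge stand for values beyond the axis, written beside them. The vehicle points of most genes lie close together, while the dexamethasone points spread, and Fzd5, Fzd7, Fzd8 and Dkk2 have all 3 red points left of all 3 blue ones.

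The arrays of the treated cultures were the more variable ones for these genes. In 33 of the 37 the SD over the dexamethasone arrays exceeded that over the vehicle arrays, as it did in 84.2% of all features with values on all arrays. The median SD was 0.20 in vehicle and 0.68 with dexamethasone. Low-signal values were also unequally spread, with 7 of 144 probe values on the vehicle arrays and 27 of 144 on the dexamethasone arrays. Of these 34, 28 fell on the ligands: all 10 Fzd genes were free of them, while 12 of 19 Wnt genes had at least 1 and 10 had no probe without one. The imbalance between arrays was not limited to these genes. Over all probes, 3.27%, 4.13% and 10.2% of values were low-signal on vehicle arrays 1, 2 and 3. On dexamethasone arrays 1, 2 and 3 the shares were 8.19%, 17.6% and 22.9%. Of all probes with 1 gene symbol 64.5% were free of low-signal values, against 10 of 27 Wnt and 11 of 11 Fzd probes. The part of low signal in the differences was not tested, and low-signal values are given with the genes they touch.

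Among the ligands, 16 of 19 differences were above 0 and 3 below, with a median of 0.73 against 0.32 for all features and a median of 0.42 after each array was centred. The 12 Wnt genes with a low-signal value had a median difference of 0.82 and the 7 without one 0.59. With every low-signal probe left out, 9 Wnt genes were measured and their median was 0.26, against 0.17 for all features. The 14 markers of blood, endothelial, epithelial and neural cells, of which 4 had a probe free of low-signal values, had a median difference of 1.02, with 12 above 0 and 2 below. Wnt8a, a ligand known mainly from early embryos, had values of -0.08, 0.03 and 0.31 on vehicle arrays 1, 2 and 3 and of 0.74, 2.09 and 1.52 on dexamethasone arrays 1, 2 and 3. Averaged over its probes, all 3 treated values were above the vehicle ones, with a difference of 1.36 ± 0.39 (SE, n = 3 against 3) and a limma adjusted p of 0.732. Its 2 probes differed by 0.46 and 1.69 and held 3 low-signal values, 1 of them missing, so dexamethasone 2 rests on 1 probe. On the probe that gave 0.46, dexamethasone 1 stood at -0.60, below the vehicle values of -0.16, -0.18 and 0.04. After quantile normalization the difference of Wnt8a was 0.56. Wnt9a, which takes part in joint and skeletal development, stood at -0.25, -0.27 and -0.22 in vehicle and 0.00, 0.53 and 0.49 with dexamethasone, without overlap. The difference was 0.58 ± 0.22 (SE), its 2 probes gave 0.49 and 0.68, and 2 of its 12 probe values were low-signal. It was 0.28 after centring each array, still without overlap.

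The other ligands with no overlap were Wnt10b and Wnt3a, both classical activators of beta-catenin. Wnt10b, a known brake on fat cell formation, stood at -0.83, -0.76 and -0.01 in vehicle and 0.10, 0.18 and 2.16 with dexamethasone, a difference of 1.35 ± 0.66 (SE; limma adjusted p = 0.732). Of its 12 probe values 4 were low-signal, and the separation was widest on dexamethasone 3: without that array the difference was 0.67, and after centring each array the groups overlapped. Wnt3a stood at -0.35, -0.44 and -0.29 in vehicle and -0.11, 1.89 and -0.26 with dexamethasone, with no low-signal value. A single array, dexamethasone 2, made most of its difference of 0.87 ± 0.64 (SE), which was 0.18 without it, and the groups overlapped after centring or quantile normalization of the arrays.

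The extremes of the ligand family each rested on 1 array. Wnt3 had the highest difference, 6.46 ± 5.33 (SE), from vehicle values of -0.10, -0.32 and -0.38 and dexamethasone values of -0.21, 0.57 and 18.22. The value of 18.22 counts as low-signal by its size, and without dexamethasone 3 the difference was 0.44. Wnt5b, a ligand of the beta-catenin-independent routes that is known to promote fat cell formation, had the lowest difference. It stood at 0.57, -0.03 and 0.43 in vehicle and 0.04, 0.25 and -1.99 with dexamethasone, a difference of -0.89 ± 0.67 (SE) that was -0.18 without dexamethasone 3. Wnt5a, the related ligand typical of mesenchymal cells, had close values on all arrays, 0.07, 0.03 and 0.10 in vehicle and 0.04, 0.24 and 0.08 with dexamethasone. Its difference of 0.05 ± 0.17 (SE) was the most precise among the ligands, although its 2 probes gave 0.36 and -0.26.

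The remaining ligands overlapped between the groups. In Wnt1, Wnt2, Wnt7a and Wnt7b dexamethasone 1 lay within or below the vehicle values, and dexamethasone 2 and 3 lay above them. For Wnt1 the dexamethasone values were -0.71, 1.52 and 0.21 against -0.22, -0.69 and -0.27 in vehicle, and for Wnt2, -0.61, 2.12 and 0.62 against 0.09, 0.10 and 0.16. For Wnt7a they were -0.76, 1.40 and 1.81 against -0.36, -0.92 and 0.72, with 2 low-signal values. Wnt7b had -1.56, 0.77 and 1.26 against -0.89, -2.32 and 0.37, with none. Vehicle 3, of the same set as dexamethasone 2 and 3, was the highest vehicle array for Wnt2, Wnt7a and Wnt7b but not for Wnt1. Wnt6 (-0.39, 4.25 and 0.41 with dexamethasone, -0.65, -0.77 and 1.17 in vehicle) and Wnt16, at 7 low-signal values of 12, had the widest spreads beside Wnt3, with SEs of 1.39 and 1.11. Differences of the other overlapping ligands ran from -0.11 for Wnt9b to 0.73 for Wnt2b. Between them lay Wnt4 (-0.04, with values on 5 arrays), Wnt10a (0.05), Wnt8b (0.38) and Wnt11 (0.48).

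**Figure D2:**
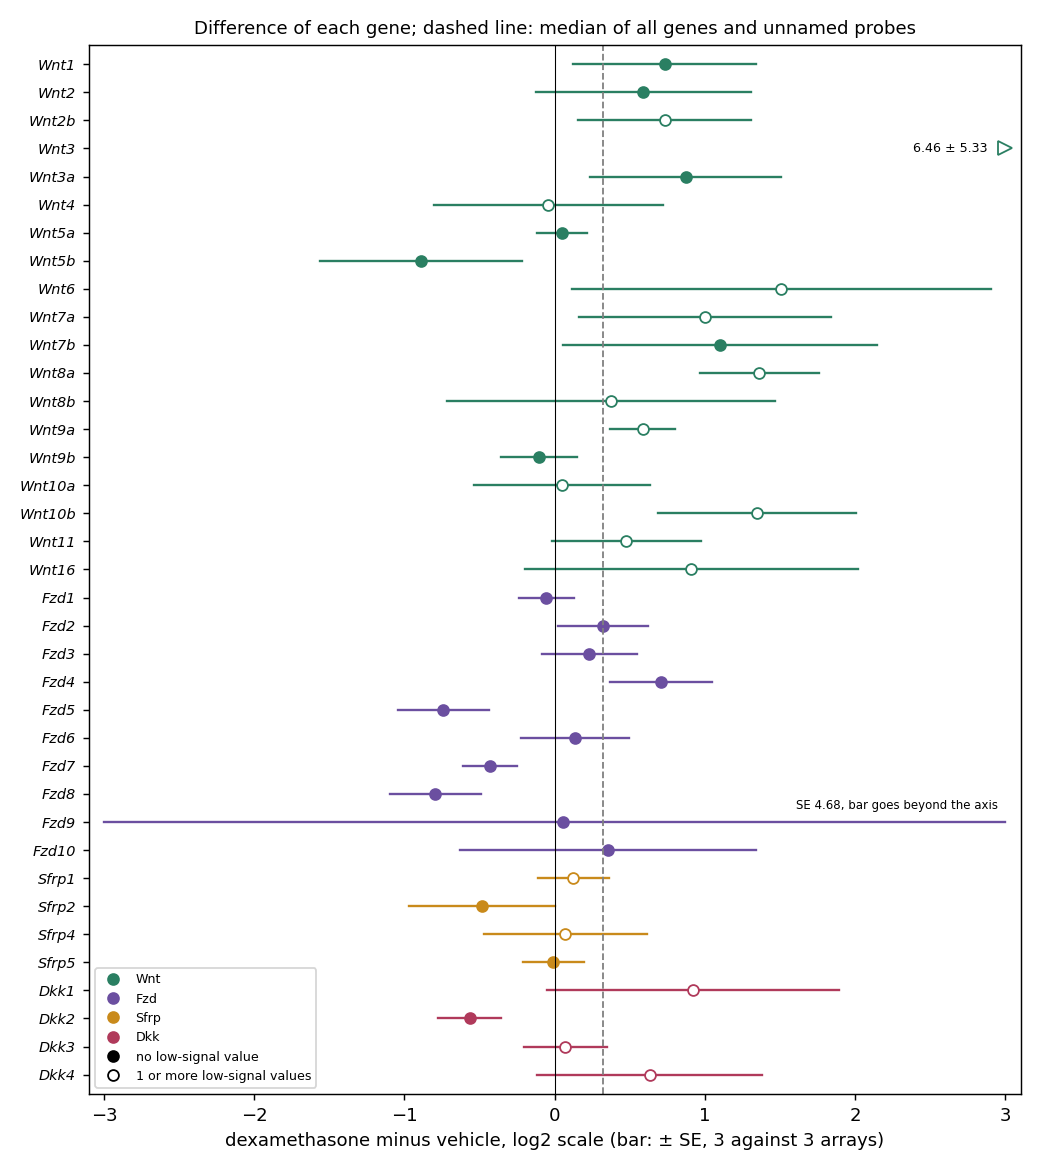
Dexamethasone minus vehicle difference of each gene on the log2 scale with its moderated SE (bars), coloured by family, filled where no probe value was low-signal and open where at least 1 was; the dashed line is the median of all genes and unnamed probes, 0.32. Most open points are Wnt genes right of 0, Fzd5, Fzd7, Fzd8 and Dkk2 are filled points left of 0, and Wnt3 lies beyond the axis at 6.46.

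The Frizzled receptors were the family with no low-signal value on any of their 11 probes. Fzd9 came close to the size limit, however, at 8.95 on dexamethasone 2 and -9.32 on dexamethasone 3. Of the 10 receptors, 3 were lower with dexamethasone on every array, where 7.29% of all features were lower without overlap. Fzd8 had vehicle values of 0.35, 0.20 and 0.39 and dexamethasone values of -0.28, -0.10 and -1.05, 0.31 ± 0.10 in vehicle and -0.48 ± 0.50 with dexamethasone (SD, n = 3 each). The difference was -0.79 ± 0.31 (SE, n = 3 against 3), which is 1.73-fold lower, with a limma adjusted p of 0.732. Fzd5, the receptor closest to Fzd8 in the family, stood at 0.09, 0.21 and 0.36 in vehicle and -0.17, -0.33 and -1.07 with dexamethasone. All 3 treated values were below all vehicle values, and the difference was -0.74 ± 0.30 (SE), 1.67-fold lower. Fzd7, a receptor of the Fzd1, Fzd2 and Fzd7 group, had the tightest vehicle values of the 3, 0.23, 0.28 and 0.27, and dexamethasone values of -0.13, -0.03 and -0.35. Its difference was -0.43 ± 0.18 (SE), 1.35-fold lower.

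In these 3 receptors the lower value was present on each treated array, and dexamethasone 3 lay lowest in each. Without dexamethasone 3 the differences were -0.51 for Fzd8, -0.47 for Fzd5 and -0.34 for Fzd7. Leaving out an array cannot make groups overlap that did not. With the arrays centred on their medians the differences were -1.10, -1.05 and -0.74, and after quantile normalization -1.66, -1.35 and -1.19, both without overlap. Centring moved every gene with complete values down by the same amount, so the larger sizes after it add no support. When every probe with a low-signal value was left out of the whole table, 29 of 17152 features (0.169%) had an adjusted p under 0.05, and 0 of the 24 genes of these families left were among them. At an unadjusted limma p under 0.05 stood 4 of the 24 (Fzd5, Fzd7, Fzd8 and Dkk2), all lower with dexamethasone, where 2.56% of all features did so in that direction.

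The other 7 receptors did not separate as deposited. After quantile normalization Fzd3 (-0.62) and Fzd6 (-0.43) were also lower without overlap, and the median difference of the family was -0.415. Fzd4, known as the receptor of norrin as well as of Wnts, had the highest difference of the family. Its values were 0.53, 0.04 and 0.27 in vehicle and 0.42, 1.06 and 1.48 with dexamethasone, so dexamethasone 1 lay within the vehicle range, and the difference of 0.71 ± 0.34 (SE) became -0.20 after quantile normalization. Fzd2 (-0.09, -0.18 and -0.04 in vehicle, -0.33, 0.33 and 0.64 with dexamethasone) and Fzd3 (0.32, 0.05 and 0.27 and -0.15, 0.67 and 0.80) had the same order, low on dexamethasone 1 and high on 2 and 3. Fzd6, at 0.05, 0.06 and 0.32 and -0.24, 0.13 and 0.95, was low on dexamethasone 1 and high on dexamethasone 3 alone, with a difference of 0.14 ± 0.36 (SE). Fzd1, of the same group as Fzd7, was close to level, at 0.24, 0.01 and 0.08 in vehicle and 0.20, -0.06 and 0.03 with dexamethasone, a difference of -0.06 ± 0.18 (SE). Fzd9 cannot be read in either direction, since its dexamethasone values were 0.10, 8.95 and -9.32 against -0.05, -0.24 and -0.16 in vehicle. The 2 probes of Fzd10 gave 0.01 and 0.70, and its averaged vehicle values already ran from -1.33 to 1.55.

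The promoters of Fzd5, Fzd7 and Dkk2 are printed because these are 3 of the 4 genes that were lower on every dexamethasone array; the other, Fzd8, is named only. Each is the stretch of 250 bases before the RefSeq start (GRCm38.p6), read 5′ to 3′ on the gene's strand. Capitals mark matches on either strand to the GC box (letters GGGCGG), to the TATA box (letters TATAAA) and to the half-site of the glucocorticoid response element (letters AGAACA), and matches that overlap run together.
Fzd5, chr1:64737751-64738000, minus strand: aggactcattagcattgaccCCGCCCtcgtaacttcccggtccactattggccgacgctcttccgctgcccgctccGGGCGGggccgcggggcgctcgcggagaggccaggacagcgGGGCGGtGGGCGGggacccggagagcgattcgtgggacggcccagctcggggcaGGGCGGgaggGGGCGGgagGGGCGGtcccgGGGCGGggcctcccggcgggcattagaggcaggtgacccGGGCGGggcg
Fzd7, chr1:59481897-59482146, plus strand: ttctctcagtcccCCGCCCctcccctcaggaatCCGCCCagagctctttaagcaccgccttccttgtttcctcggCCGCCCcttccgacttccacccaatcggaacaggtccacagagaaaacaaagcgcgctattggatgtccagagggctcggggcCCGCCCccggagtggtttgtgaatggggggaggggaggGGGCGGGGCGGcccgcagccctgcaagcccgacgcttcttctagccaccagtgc
Dkk2, chr3:132085042-132085291, plus strand: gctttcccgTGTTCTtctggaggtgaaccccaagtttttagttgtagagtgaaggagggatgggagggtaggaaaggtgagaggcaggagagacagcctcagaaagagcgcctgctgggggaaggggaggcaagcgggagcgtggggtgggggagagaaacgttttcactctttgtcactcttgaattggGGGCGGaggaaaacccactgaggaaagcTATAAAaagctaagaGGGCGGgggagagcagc
The windows of Fzd5 and Fzd7 held 9 and 6 GC boxes. Their G+C contents were 76.4% and 65.2%, against a median of 52.4% over all 32851 windows and of 69.4% over the 28 windows found for 25 of the 37 genes. Such counts were not shared by all Frizzled genes nor limited to them, since Fzd9 and Fzd10 had 1 GC box each and Wnt3a had 9. Dkk2 differed, with a TATA box 32 bases before the start, 2 GC boxes and a half-site, TGTTCT, 241 bases before the start. Such a half-site was present in 16.1% of all windows and in 3 of the 28 (Dkk2, Wnt5b and Wnt8b). The full element, both half-sites 3 bases apart, was in 0.00913% of all windows and in 0 of the 28. A GC box was in 32.7% of all windows and in 71.4% of the 28. The TCF/LEF core CTTTGAT, on either strand, was in 3.21% of all windows, and in the 28 it was found for Wnt5b and Wnt11. These are matches of letters within 250 bases and say nothing of sites elsewhere.

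The secreted antagonists of the Sfrp family showed no separation. Sfrp2, abundant in many mesenchymal cells, had the lowest difference of the 4. It stood at 0.80, -0.38 and 0.18 in vehicle and 0.39, -0.27 and -0.97 with dexamethasone, a difference of -0.48 ± 0.49 (SE) that was -0.14 without dexamethasone 3. Sfrp1 had the highest difference, 0.12 ± 0.24 (SE), from 0.14, -0.28 and 0.16 in vehicle and 0.16, 0.36 and -0.13 with dexamethasone. That difference turned to -0.18 after centring each array, and its 2 probes, with 1 low-signal value, gave 0.29 and -0.04. Sfrp5 lay within a narrow range, -0.48, -0.36 and -0.23 in vehicle and -0.33, -0.60 and -0.17 with dexamethasone, a difference of -0.01 ± 0.20 (SE). Sfrp4 had 0.39, -0.35 and 0.72 and -0.65, 0.95 and 0.68, with 1 low-signal value and full overlap.

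Of the Dkk antagonists, Dkk2 was lower with dexamethasone on every array. Its values were 0.22, 0.10 and 0.17 in vehicle and -0.09, -0.54 and -0.58 with dexamethasone, 0.16 ± 0.06 in vehicle and -0.40 ± 0.27 with dexamethasone (SD, n = 3 each). The difference was -0.57 ± 0.21 (SE, n = 3 against 3), 1.48-fold lower, with a limma adjusted p of 0.732 and no low-signal value. The separation did not hold under every scaling: after centring each array the difference was -0.87 but the groups then overlapped, as they did after quantile normalization. Dkk1, the best known inhibitor of the Lrp co-receptors, had values of -1.20, -0.69 and 0.58 in vehicle and -1.32, 1.87 and 0.90 with dexamethasone. The values of Dkk1 overlapped, with 1 of them low-signal, and the difference of 0.92 ± 0.97 (SE) was smaller than its SE. Dkk4 (0.17, -0.03 and 0.66 in vehicle, -0.66, 2.00 and 1.35 with dexamethasone) had the same shape, low on dexamethasone 1 and high on 2 and 3, with 1 low-signal value. Dkk3, the divergent member that does not act on the Lrp co-receptors as the others do, had 2 probes, with 2 low-signal values, that gave 0.23 and -0.08, an averaged difference of 0.07 ± 0.28 (SE).

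Because the 2 sets of arrays hold both treatments, the difference could also be taken within each set: dexamethasone 1 against the mean of vehicle 1 and 2, and the mean of dexamethasone 2 and 3 against vehicle 3. These are differences of 1 array against 2, with no test. Of the 37 genes 6 were below 0 in both sets (Wnt5b, Fzd5, Fzd7, Fzd8, Fzd10 and Dkk2) and 9 were above 0 in both, against 23.5% and 28.5% of all features. Where the groups did not overlap, as in Fzd5, Fzd7, Fzd8, Dkk2, Wnt8a and Wnt10b, the shared sign follows from that alone. It adds no support to the separation. Fzd7 had -0.39 in the first set and -0.46 in the second. Fzd8 had -0.56 and -0.96, Fzd5 -0.31 and -1.06, and Dkk2 -0.25 and -0.73. The ligand Wnt8a had 0.77 and 1.49, and Wnt10b 0.89 and 1.18. For the ligands as a family the median was 0.02 in the first set and 0.73 in the second, against -0.05 and 0.25 for all features. In a limma fit with the set as a block, Wnt8a alone of the 37 kept an unadjusted p under 0.05, and 0 passed after adjustment.

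**Figure D3:**
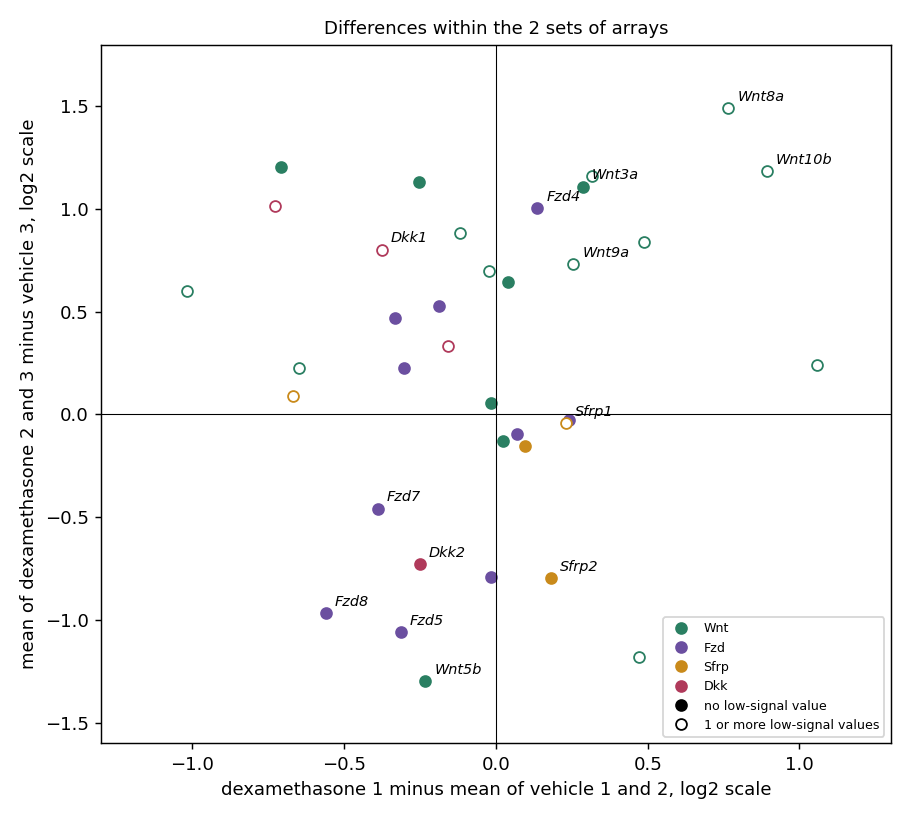
Difference within the first set of arrays (x axis: dexamethasone 1 minus the mean of vehicle 1 and 2) and within the second (y axis: mean of dexamethasone 2 and 3 minus vehicle 3), on the log2 scale, for 36 of the 37 genes; Wnt3, at 9.77 on the y axis, is not drawn. Fzd5, Fzd7, Fzd8 and Dkk2 lie in the lower left quadrant, Wnt8a and Wnt10b in the upper right, and open points are genes with a low-signal value. Genes whose groups did not overlap can only lie in those quadrants.

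**Figure D4:**
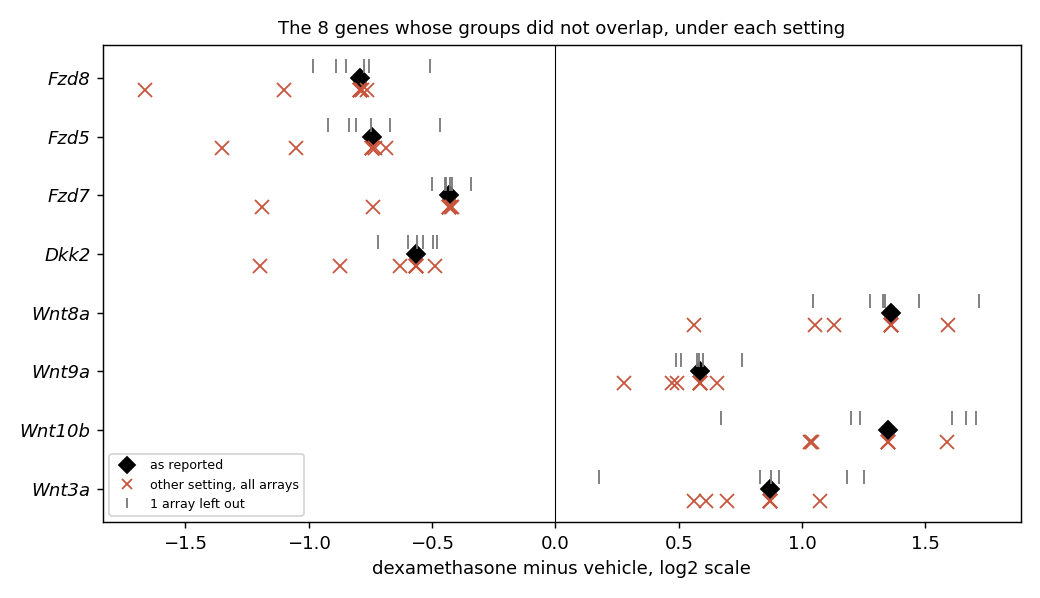
Dexamethasone minus vehicle difference of the 8 genes whose groups did not overlap, as reported (diamonds), under the other settings with all arrays (crosses) and with 1 array left out (bars), on the log2 scale. Every mark of Fzd5, Fzd7, Fzd8 and Dkk2 lies below 0 and every mark of Wnt3a, Wnt8a, Wnt9a and Wnt10b above 0. Leaving out 1 array cannot turn the sign of such genes, and several other settings leave the difference unchanged. Centring lowers each of these differences by the same amount, so it cannot turn those below 0. Fzd8 reaches -1.66 under quantile normalization and Wnt8a 1.72 without dexamethasone 1.

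The rest of the pathway gave 77 of 81 listed genes on the array, of which 76 could be tested, and limma called 0; the other 4 were not analysed here. At an unadjusted p under 0.05 there were 5, 2 higher and 3 lower, where 5.43% of all features reached that level. The median difference was 0.17, with 52 above 0 and 24 below. Among those with values on all 6 arrays, 8 were lower and 12 higher without overlap, against 7.29% and 9.95% of all features. The largest separations among the 5 were those of Rspo2 and Lgr4, a secreted R-spondin that strengthens Wnt signals and a receptor through which R-spondins act. Rspo2 had 0.87, 0.58 and 0.61 in vehicle and -0.55, -0.91 and -1.67 with dexamethasone, a difference of -1.73 ± 0.34 (SE, n = 3 against 3), 3.32-fold lower, with a limma adjusted p of 0.44. Lgr4 had 0.46, 0.52 and 0.58 in vehicle and -0.36, -1.63 and -1.42 with dexamethasone. Its difference was -1.65 ± 0.38 (SE), 3.15-fold lower, with a limma adjusted p of 0.565 and 1 low-signal value. Both were lower on every treated array, which fixes the sign in both sets of arrays (-1.27 and -1.90 for Rspo2, -0.85 and -2.10 for Lgr4). After quantile normalization the differences were -2.89 and -3.10.

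Within the cell the picture was mixed. Twist1, a mesenchymal transcription factor listed here among beta-catenin targets, was lower on every treated array, at 0.33, 0.38 and 0.32 in vehicle and -0.24, -1.04 and -0.63 with dexamethasone, 1.97-fold lower. Dact1, which binds Dishevelled, was higher on every treated array, at -0.34, -0.62 and -0.43 against 0.53, 0.08 and 0.47, 1.77-fold higher. Myc, a growth regulator and beta-catenin target, was 1.48-fold higher, at -0.54, -0.42 and -0.45 against 0.04, 0.27 and -0.02. These 3 complete the 5 and had limma adjusted p of 0.697, 0.678 and 0.732. After centring each array the groups still did not overlap for Twist1 (-1.29) but did for Dact1 (0.52) and Myc (0.26). Axin2, the target most often used as a readout of beta-catenin activity, gave no separation: -0.03, -0.01 and 1.51 in vehicle and -0.10, 1.45 and 2.58 with dexamethasone, with 1 low-signal value. Vehicle 3 and dexamethasone 2 and 3, which are 1 set of arrays, were its high ones. Beta-catenin itself (Ctnnb1) stood at 0.30, 0.29 and 0.36 in vehicle and 0.26, -0.17 and 0.14 with dexamethasone, a difference of -0.25 ± 0.19 (SE), and Lef1 differed by -0.55 ± 0.36 (SE). Of the co-receptors, Lrp5 was higher without overlap, -0.76, -0.81 and -0.74 against -0.20, -0.62 and 0.14, and Lrp6 differed by -0.04 ± 0.17 (SE). Wls, which carries Wnts to the cell surface, was lower without overlap, 0.13, 0.17 and 0.03 in vehicle and -0.11, -0.21 and -0.31 with dexamethasone. Porcn, which attaches the lipid to Wnts, had -0.03, -0.24 and -0.11 in vehicle and -0.23, 1.57 and 1.93 with dexamethasone, high on dexamethasone 2 and 3 only. Frzb, the antagonist also known as Sfrp3, had 0.07, 0.23 and 0.61 in vehicle and 0.59, 1.22 and 1.98 with dexamethasone, with 1 low-signal value and a small overlap. After centring each array the groups also overlapped for Lrp5 (a difference of 0.23), Wls (-0.63) and Ctnnb1 (-0.55), and no longer for Frzb (0.65).

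**Figure D5:**
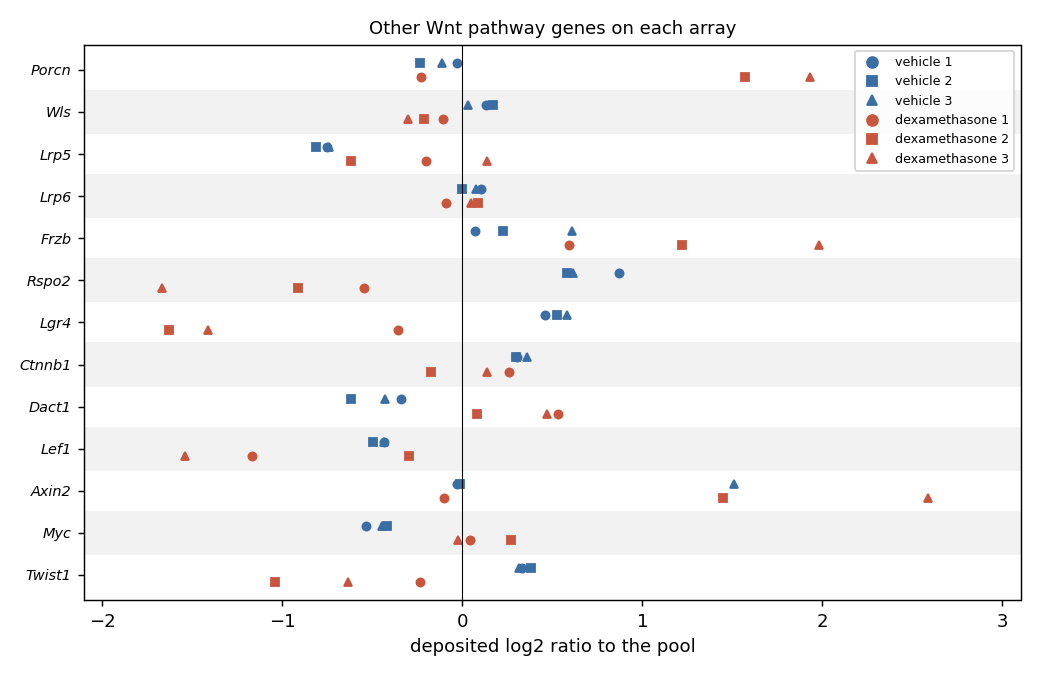
Values of 13 other Wnt pathway genes (rows) on each array, as deposited log2 ratios to the pool, with vehicle arrays in blue and dexamethasone arrays in red. Rspo2, Lgr4, Twist1, Wls and Ctnnb1 have all 3 red points left of the blue ones, Dact1, Myc and Lrp5 have them to the right, and Axin2 and Porcn are split between dexamethasone 1 and the other treated arrays. Among all 76 pathway genes tested, 8 were lower and 12 higher without overlap, so these 13 do not stand for the whole.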

How the data were processed

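The values were deposited by the authors as 1 column per array. The columns of 2 arrays (vehicle 1 and 2) fit log2 ratios with no value beyond 100 in size, although 1 and 29 values exceeded 10. The other 4 hold mostly such ratios and a few values beyond 100 in size, and were recorded as scores, per the deposited values. The submitters' processing notes name limma. How the authors corrected, normalized and filtered the log2 ratios before they were deposited, and the ratio's direction, is not given in the sources used here.

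Of 38467 probes 29456 carried 1 gene symbol, 760 several and 8251 none; 28735 of the first had an Entrez identifier in a RefSeq table (GRCm38.p6), which changed 0 symbols. Probes of a gene were averaged (avereps), and features with values on under 2 arrays of either group were left out. The fit ran over all 27046 features in R 4.3.3 with limma 3.58.1 (lmFit, eBayes), two-sided, Benjamini-Hochberg at 0.05, without further normalization or block; SE is the moderated standard error. It was tested on simulated data. The p-values measure the spread between these arrays, whose number limits the precision.

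Arrays were grouped by title. The genes, pathway lists and settings were chosen with earlier results of these data known. Values on every array were printed for genes with an unadjusted p under 0.05, groups that did not overlap or the extremes of a family; others were chosen after their values were seen. The other settings were a replicate block, centring, quantile normalization, low-signal and missing-value filters, other probe handling, array weights, a robust prior, an array-set block and leaving out each array. Promoter sequences came from RefSeq.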

Additional observations from a re-analysis of the deposited data

How the results depend on the processing

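Over 17 other settings, 0 of the 37 genes and 0 of the other pathway genes had a limma adjusted p under 0.05. Of the 14 genes of these families that the naming rule took, 12 kept the direction of their difference under every setting run; Fzd4 turned under quantile normalization (-0.20) and Sfrp1 under 4 settings. Of 13 other pathway genes 12 kept theirs, Lrp6 being the exception. Much of this was fixed by the settings. Leaving out an array cannot turn genes whose groups did not overlap. The replicate block, the robust prior and the demand for values on all 6 arrays cannot change a difference of genes with complete values. Centring moved all differences of such genes down by the same amount, so it could not turn those below 0. The count of the 37 at an unadjusted p under 0.05, 4 as reported, was 2 with a replicate block, 2 after centring each array on its median and 1 with the array set as a block. Leaving out 1 array it ran from 0 (without vehicle 1 or vehicle 2) to 9 (without dexamethasone 1), and 29.2% of all features reached that level without dexamethasone 1. Without vehicle 3 the count was 1, and without dexamethasone 3 it was 2. The median difference of the 37 was -0.178 after quantile normalization, when that of all features was -0.03. Over all features 29 were called with low-signal probes left out and 5 with values on all 6 arrays required; the cause was not tested. Deviations of same-numbered arrays from their group means correlated at 0.289, -0.178 and 0.355 (Spearman, across 22549 features). Those of differently numbered arrays ran from -0.472 (vehicle 3 and dexamethasone 1) to 0.339 (vehicle 2 and dexamethasone 1). Whether the replicate numbers pair the arrays cannot be settled in this way, since the arrays also differ by set. With the replicate block, the adjusted p of the 37 was at least 0.707. Precision is limited by having 6 arrays, and no intensity or background was used here, so low signal is known only from missing, whole-number and extreme ratios.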
